A study of Mus musculus with 6 samples.

Results

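The genes described here encode the nuclear pore complex, the carriers that take cargo through it and the enzymes of the Ran cycle. They were chosen by symbol alone: a probe set was kept if the array annotation gave it exactly 1 gene symbol and that symbol was a nucleoporin (Nup followed by a number, Aaas, Seh1l, Pom121, Rae1 or Tpr), an importin (Kpna, Kpnb1 or Ipo), an exportin (Xpo), Ran, Ranbp1 or Rangap1. This gave 125 of the 45101 probe sets on the array, for 46 of the 18193 genes tested. No probe set of its own symbol was found for Tpr. The samples were epithelium of mouse trachea at 48 h post-injury (48 hpi) and from normal controls, with 3 samples in each group. The 48 hpi mice had breathed 500 ppm SO2 for 4 h, an injury after which the airway epithelium repairs itself, and the control mice had not been exposed. All mice were male C57Bl/6 animals, and each sample pooled cells of 4 tracheas, so that the spread between samples is one between pools and not between animals. The epithelium was peeled off after Dispase treatment, dissociated and depleted of CD45+ leukocytes before RNA was extracted. The comparison asked how epithelial gene expression at 48 hpi differed from the steady state. Mesenchymal samples were not analysed here.

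The nuclear pore complex is a ring-shaped channel that spans both membranes of the nuclear envelope. A scaffold of Y-shaped outer rings and an inner ring holds the channel open, flexible nucleoporins rich in phenylalanine-glycine repeats fill it, and a basket faces the nucleus. Importins and exportins carry proteins and RNA through it, and the small GTPase Ran gives the traffic its direction, since Ran is loaded with GTP in the nucleus and hydrolyses it in the cytoplasm. In animal cells the complexes are taken apart and rebuilt at each mitosis and new ones are inserted as the nucleus grows, and several carriers and nucleoporins also act in spindle assembly.

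Values are log2 levels after robust multi-chip analysis (RMA), so that a difference of 1 is a doubling. Changes are 48 hpi minus control with the standard error (SE) from limma, in which each gene was represented by its brightest probe set, and the call of a gene was set at a Benjamini-Hochberg adjusted p below 0.05 over all 18193 genes. Background was read from 79 probe sets of chemosensory receptors (olfactory, vomeronasal, trace amine), whose 95th percentile was 4.81 at 48 hpi and 4.94 in control. The 3 pools per group limit the precision, and a single value tested by exact permutation could at best reach a two-sided p of 0.1.

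Array medians lay between 4.89 and 4.99, and the 4 epithelial markers checked (Epcam, Cdh1, Krt8 and Krt18) were above background in both groups. Ptprc, which encodes CD45, lay between 2.82 and 2.86 at 48 hpi and between 2.93 and 3.14 in control, within background in every pool. The macrophage gene Lyz2 had levels of 12.35, 10.99 and 8.57 in 48 hpi replicates 1, 2 and 3, and of 13.85, 13.60 and 13.88 in control replicates 1, 2 and 3. Of the other leukocyte markers only Csf1r was called, also lower. The summed level of the 7 leukocyte markers, nearly all of it Lyz2, ranged from 9.03 to 12.4 at 48 hpi and from 13.6 to 13.9 in control. Chad, a cartilage gene, had levels of 9.42, 9.72 and 7.87 at 48 hpi and of 11.47, 11.95 and 11.62 in control (−2.68, SE 0.42). Dcn, a fibroblast gene, had levels of 8.92, 9.03 and 7.46 at 48 hpi and of 10.05, 10.61 and 10.32 in control (−1.85, SE 0.38). Both were lowest in 48 hpi replicate 3 and were the only cartilage and fibroblast markers called, of 4 and 6. The 5 fibroblast markers not called were within background in control, with changes of 0.11 to 1.04. Col2a1 and Comp of the cartilage markers were within background in both groups, and Acan was near it (4.81 at 48 hpi, 5.03 in control). Of the 7 leukocyte markers 3 were above background in each group. Whether Lyz2, Chad and Dcn came from macrophages, cartilage and fibroblasts was not tested. All 5 secretory markers and 5 of 6 ciliated markers were lower, and of 5 basal cell markers 2 were higher and 2 lower. Because the RNA is from whole pools, fewer cells of a type and less RNA per cell cannot be told apart.

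Most of the transport genes rose at 48 hpi. Of the 46 genes, 40 were called higher and 0 lower, while over all genes tested 19.4% were called higher and 17.5% lower. The median change of the 46 genes was 0.97, with quartiles of 0.49 and 1.53, and that of all genes was −0.02, with quartiles of −0.23 and 0.21. A change above 1 was reached by 22 of the 46 genes and by 5.12% of all genes. Kpna2 (2.22), Nup210 (2.05), Aaas (1.99), Ipo5 (1.95) and Ranbp1 (1.92) had the largest changes of the set. Below the threshold were Nup214 (0.36), Ipo8 (0.27), Kpna6 (0.16), Nup210l (0.00), Ipo13 (−0.06) and Kpna7 (−0.08).

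The pools of the groups stood apart for most genes of the set. In 42 of the 46 genes every 48 hpi pool was above every control pool, which held for 25.4% of all genes, and the other 4 (Kpna6, Kpna7, Nup210l and Ipo13) overlapped. The median level of the 46 genes was 8.30, 8.35 and 8.60 in 48 hpi replicates 1, 2 and 3, against 7.50, 7.54 and 7.62 in control replicates 1, 2 and 3. Thus 48 hpi replicate 3 had the highest median. It was the highest of the 48 hpi pools in 41 of the 46 genes and in 37 of the 40 called higher, whereas this was so in 36.7% of all genes and in 74.7% of all genes called higher. The SD between pools was larger at 48 hpi than in control in 35 of the 46 genes, against 55.2% of all genes. Replicate 3 was also the pool with the least Lyz2, Chad and Dcn. At 48 hpi it was lowest in secretory Pigr (10.69, 10.64 and 8.96 in replicates 1, 2 and 3) and Scgb3a1 (13.45, 13.54 and 12.26). Ciliated Rsph1 (7.39, 7.58 and 6.53) and Foxj1 (8.09, 8.43 and 6.88) were also lowest there. So were Ccdc39 (5.77, 6.11 and 5.09) and Tekt1 (5.13, 4.99 and 4.65). Of the ciliated markers within background at 48 hpi, Dnah5 was lowest there (3.74, 3.84 and 3.51) and Dnah9 was not (4.56, 4.63 and 4.57). Mki67 (10.59, 10.70 and 11.00) and basal Krt14 (11.4, 11.0 and 12.0) were highest there, and basal Ngfr lowest (7.53, 7.65 and 7.18). Replicate 3 correlated with the other 48 hpi pools at 0.990 and 0.991 over the 34945 probe sets with 1 symbol, while these correlated with each other at 0.996. Of the 48 hpi arrays, replicate 3 also had the largest difference between the 3′ and 5′ actin control probe sets (0.58, 1.01 and 1.17). In control this difference was 0.88, 1.22 and 1.00. The hybridization controls averaged 11.139, 10.998 and 10.896 at 48 hpi and 11.684, 11.147 and 11.234 in control. Without 48 hpi replicate 3, 39 genes of the set were called higher, 0 lower, and the median change was 0.87. Beyond this omission and the alternatives given below, the part of these differences in the result was not tested.

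**Figure D1:**
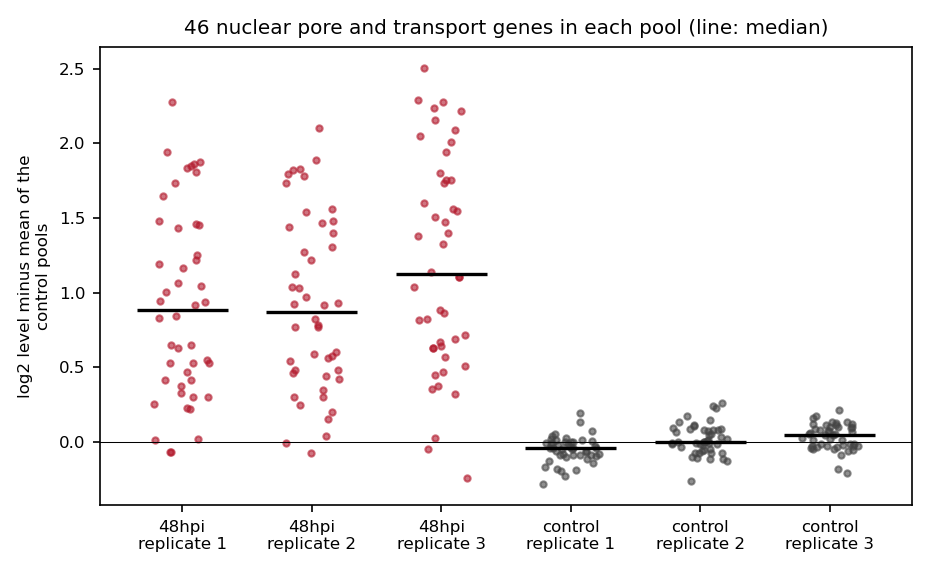
Each point is 1 of the 46 genes in 1 pool, as its log2 level minus the mean of the 3 control pools, and the bars are medians; points are spread sideways only to keep them visible. Most genes lie above 0 in all 48 hpi pools, and replicate 3 lies highest, as in the medians of the levels (8.30, 8.35 and 8.60).

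The Y complex, the outer ring of the scaffold, rose as a whole. All 7 members in the set were called higher, with a median change of 1.54 and a range of 0.44 to 1.88, and so were Sec13 (0.38, SE 0.10) and Ahctf1 (0.91, SE 0.16), which also belong to the complex but whose symbols lie outside the set. Nup160, which lies in the arms of the Y, had levels of 8.50, 8.41 and 8.77 at 48 hpi and of 7.06, 7.01 and 6.98 in control, a change of 1.54 (SE 0.11, limma adjusted p = 4.58e-05). Nup37 had levels of 8.25, 7.75 and 8.06 at 48 hpi and of 6.31, 6.18 and 6.43 in control (1.71, SE 0.14, adjusted p = 8.21e-05). Nup133, which forms the stalk of the Y and holds a membrane-sensing loop, had levels of 8.33, 8.44 and 8.89 at 48 hpi and of 6.88, 6.87 and 6.89 in control (1.67, SE 0.14, adjusted p = 0.000111). For these genes the lowest 48 hpi pool lay more than 1 log2 unit above the highest control pool, and the control pools of Nup133 were nearly equal. The other members were Nup43 (1.88, SE 0.19), the stalk protein Nup107 (1.38, SE 0.17), Nup85 (1.24, SE 0.16) and Seh1l (0.44, SE 0.11), a beta-propeller protein that also belongs to a nutrient-sensing complex. Nup107 was read by its only probe set, of the s type, which can bind several transcripts. The probe sets of Seh1l did not agree in size, and its call was lost without control replicate 3 and with an equal-variance t-test.

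In the inner ring, which lines the channel and anchors it to the membrane, all 4 measured members were higher, with a median change of 1.34. Nup205, a large solenoid scaffold protein, had levels of 9.12, 9.30 and 9.52 at 48 hpi and of 7.49, 7.37 and 7.58 in control, a change of 1.84 (SE 0.12, limma adjusted p = 3.16e-05), or 3.58-fold with a 95% confidence interval of 2.96 to 4.33. Nup93, the organiser of the inner ring, had levels of 8.26, 8.28 and 8.61 at 48 hpi and of 6.82, 6.73 and 6.86 in control (1.58, SE 0.11, adjusted p = 4.91e-05). Nup188, a relative of Nup205 that also binds Nup93, had levels of 7.43, 7.52 and 7.81 at 48 hpi and of 6.47, 6.55 and 6.46 in control (1.1, SE 0.11, adjusted p = 0.000262). The transcripts of both large scaffold proteins thus rose with that of their shared partner. The other probe set of Nup205, dimmer but above background, gave 0.33 and was not called. Nup155 changed by 1.07 (SE 0.18). Nup35 had no probe set of its own symbol.

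The nucleoporins that fill the channel rose less evenly. Nup54, a partner of Nup62, had levels of 8.19, 8.0 and 8.54 at 48 hpi and of 7.08, 7.03 and 6.98 in control (1.21, SE 0.14, limma adjusted p = 0.000396). Nup62, the best known phenylalanine-glycine nucleoporin, had levels of 10.80, 10.95 and 11.20 at 48 hpi and of 10.16, 10.12 and 10.21 in control (0.82, SE 0.12, adjusted p = 0.00103). Nup98, a nucleoporin of the channel that also binds Rae1, had levels of 9.55, 9.63 and 9.80 at 48 hpi and of 9.23, 9.41 and 9.34 in control (0.33, SE 0.10, adjusted p = 0.0304). The pools of all 3 genes stood apart, but those of Nup98 were separated by little, and its call was lost with an equal-variance t-test, with repeated quantile normalization and without any of 4 single pools (replicates 2 and 3 of 48 hpi, replicates 1 and 3 of control), with adjusted p between 0.0652 and 0.154. Nup62cl had no probe set of its own symbol.

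Among the proteins that span the nuclear membrane, Nup210 and its relative Nup210l differed. Nup210, a membrane glycoprotein of the pore, had levels of 7.72, 7.74 and 8.42 at 48 hpi and of 5.79, 6.06 and 5.89 in control, a change of 2.05 (SE 0.19, limma adjusted p = 0.00016), or 4.13-fold with an interval of 3.06 to 5.57. Nup210l, a relative of Nup210 known from the testis, had levels of 5.80, 5.90 and 5.90 at 48 hpi and of 6.06, 5.85 and 5.69 in control, above background but with overlapping pools (0.00, SE 0.11, adjusted p = 0.999). Pom121, a membrane protein needed to insert new pores in interphase, had levels of 9.75, 9.89 and 10.14 at 48 hpi and of 9.48, 9.45 and 9.42 in control (0.48, SE 0.11, adjusted p = 0.0105). Its call was lost with an equal-variance t-test (adjusted p = 0.0515).

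On the cytoplasmic face 3 of 4 members were higher. Aaas, which encodes ALADIN, the protein altered in Allgrove syndrome, had levels of 8.21, 8.26 and 8.60 at 48 hpi and of 6.22, 6.29 and 6.58 in control, a change of 1.99 (SE 0.14, limma adjusted p = 4.4e-05). Nup88, which binds Nup214, had levels of 8.97, 9.05 and 9.16 at 48 hpi and of 8.37, 8.54 and 8.43 in control (0.61, SE 0.09, adjusted p = 0.00146). Rae1, a messenger RNA export factor with a further role at the spindle, had levels of 8.07, 8.03 and 8.0 at 48 hpi and of 7.51, 7.49 and 7.65 in control (0.48, SE 0.09, adjusted p = 0.00311), and was not called when the mean of its probe sets was used (0.15, adjusted p = 0.129). Aaas thus changed by over 1 log2 unit more than its neighbours at this face. Nup214, which docks export carriers, had a change of 0.36 (SE 0.13, adjusted p = 0.0548) although its pools did not overlap, and its other probe set was called higher (0.63, SE 0.10, adjusted p = 0.00211 over all probe sets).

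Both measured genes of the nuclear basket were higher, by similar amounts. Nup153, which tethers the basket and binds lamins, had levels of 8.74, 8.68 and 8.84 at 48 hpi and of 8.29, 8.23 and 8.13 in control (0.54, SE 0.09, limma adjusted p = 0.00226). Nup50, which helps to release cargo from importin alpha, had levels of 7.79, 7.62 and 7.81 at 48 hpi and of 6.97, 7.21 and 7.24 in control (0.60, SE 0.11, adjusted p = 0.00301). The call of Nup153 was not kept with the mean of its probe sets (0.33, adjusted p = 0.109), and on the probe set with the largest interquartile range its change was −0.18 (adjusted p = 0.567).

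**Figure D2:**
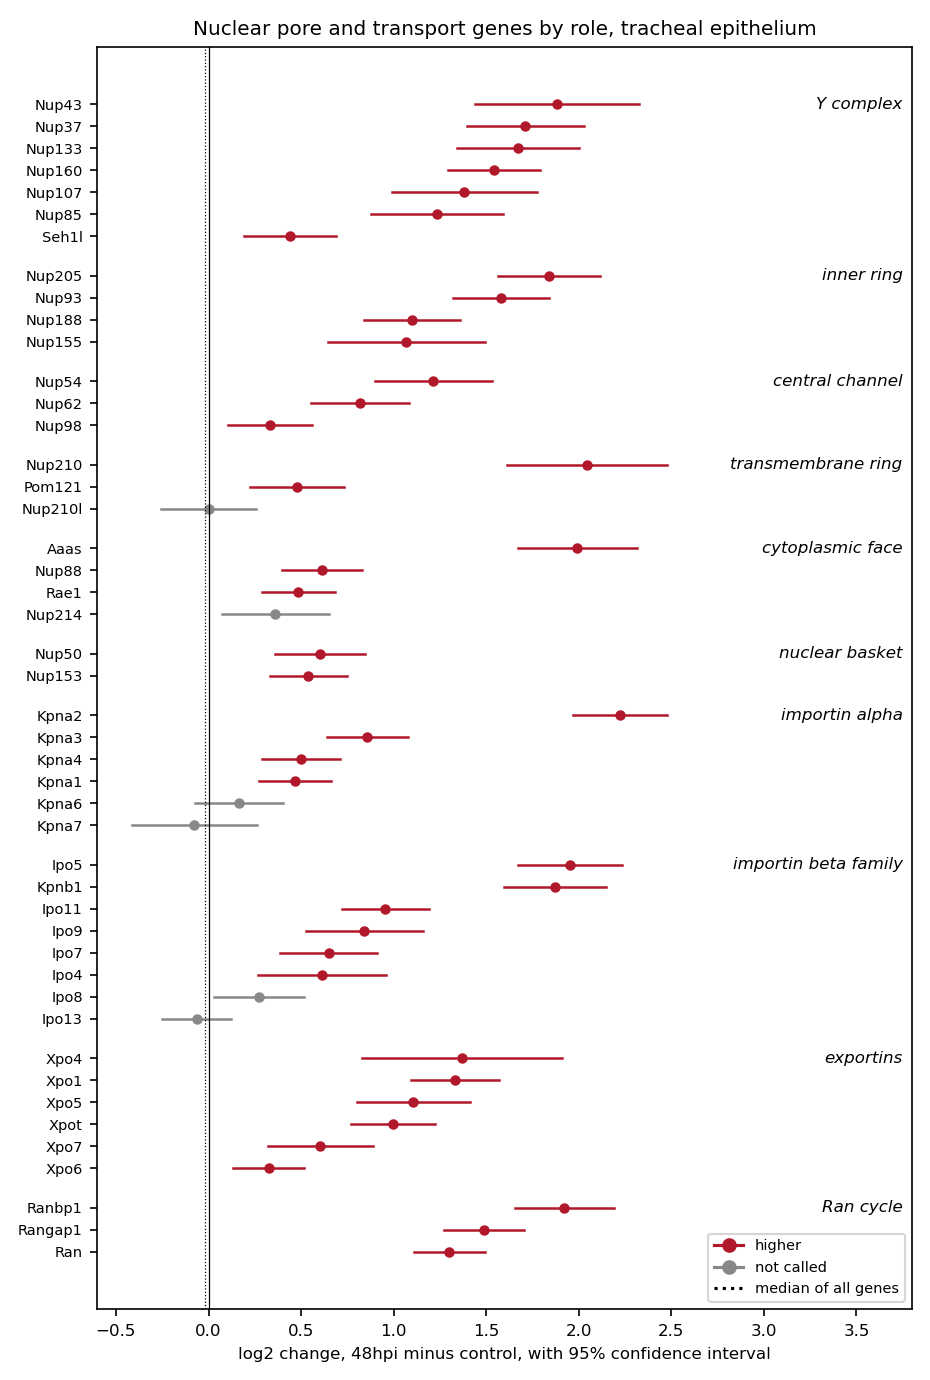
The log2 change of each of the 46 genes, 48 hpi minus control, with its 95% confidence interval from limma, grouped by role; red marks a call and grey none, the solid line marks 0 and the dotted line the median of all genes (−0.02). All 7 genes listed under the Y complex, all 4 of the inner ring, all 6 exportins and all 3 genes of the Ran cycle are red, and the widest range within a role is that of importin alpha, from −0.08 to 2.22.

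Of the importin alpha genes, whose products bind the classical nuclear localisation signal, 4 of 6 were higher. Kpna2, the importin alpha that is abundant in proliferating and embryonic stem cells, had levels of 10.58, 10.41 and 10.60 at 48 hpi and of 8.12, 8.41 and 8.39 in control, a change of 2.22 (SE 0.11, limma adjusted p = 7.07e-06), or 4.66-fold with an interval of 3.91 to 5.56. Kpna3 had levels of 7.52, 7.34 and 7.44 at 48 hpi and of 6.57, 6.47 and 6.69 in control (0.86, SE 0.09, adjusted p = 0.00037). Kpna1 had levels of 7.92, 7.88 and 7.96 at 48 hpi and of 7.39, 7.53 and 7.44 in control (0.47, SE 0.08, adjusted p = 0.00326). Kpna2 thus had the largest change of the whole set, and that of Kpna1 was modest, although the pools of both stood apart. Without x and s probe sets Kpna1 was not called (0.30, adjusted p = 0.0625). Kpna4 changed by 0.50 (SE 0.09), Kpna6 by 0.16 (SE 0.10, adjusted p = 0.262) and Kpna7, a form known from oocytes and early embryos, by −0.08 (SE 0.15, adjusted p = 0.729). Kpna7 was the only member within background in both groups, at 4.42 and 4.49. Its sign and that of Ipo13 turned when the arrays were shifted to share 1 median, or to make the hybridization controls equal.

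Kpnb1, which encodes importin beta, the carrier that importin alpha rides on, had levels of 10.19, 10.25 and 10.55 at 48 hpi and of 8.35, 8.59 and 8.43 in control, a change of 1.87 (SE 0.12, limma adjusted p = 2.93e-05). This was read by an x probe set, and on the brightest probe set of the other types the change was 0.76 (adjusted p = 0.000681). Ipo5, a carrier of ribosomal proteins and histones among others, had levels of 9.46, 9.39 and 9.82 at 48 hpi and of 7.59, 7.63 and 7.59 in control (1.95, SE 0.12, adjusted p = 2.47e-05), or 3.87-fold with an interval of 3.19 to 4.70. Ipo11 had levels of 6.92, 7.01 and 7.19 at 48 hpi and of 6.00, 6.08 and 6.17 in control (0.95, SE 0.10, adjusted p = 0.000308). In each of these genes the groups were well apart, and Ipo5 varied little between control pools. Of the 8 genes of this family 6 were higher, with Ipo9, a histone importer (0.84, SE 0.14), Ipo7, an importer of ribosomal proteins (0.65, SE 0.11), and Ipo4 (0.61, SE 0.15) the smaller changes. Ipo8 changed by 0.27 (SE 0.10, adjusted p = 0.0757), with pools that did not overlap. Ipo13, a carrier that works in both directions, had a change of −0.06 (SE 0.08, adjusted p = 0.59) and an interval of −0.25 to 0.12, at a level of 8.20 at 48 hpi and 8.27 in control.

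All 6 exportins were higher, with changes of 0.33 to 1.37. Xpo1, the exporter of proteins with leucine-rich export signals, had levels of 9.75, 9.83 and 10.00 at 48 hpi and of 8.44, 8.49 and 8.65 in control (1.33, SE 0.10, limma adjusted p = 7.07e-05). Xpot, the tRNA exporter, had levels of 9.65, 9.66 and 9.87 at 48 hpi and of 8.65, 8.72 and 8.82 in control (1.00, SE 0.10, adjusted p = 0.000217). Xpo5, which exports microRNA precursors, had levels of 7.49, 7.40 and 7.88 at 48 hpi and of 6.41, 6.48 and 6.56 in control (1.11, SE 0.13, adjusted p = 0.000524). Xpo1, Xpot and Xpo5 thus had changes of 1.00 to 1.33 and pools that stood apart. Xpo4 changed by 1.37 (SE 0.23), but its level in control, 4.37, was within background, so that the size is uncertain. Set against that background, the 48 hpi mean of Xpo4, 5.74, was 1.74-fold higher, a value without allowance for the spread of its pools (5.41, 5.49 and 6.31). The limma adjusted p of 0.00259 belongs to the change of 1.37 from the control mean. Its other probe sets, within background in both groups, gave 0.26 and 0.11 and were not called. Xpo7 changed by 0.60 (SE 0.12) and Xpo6, the exporter of actin, by 0.33 (SE 0.08). The call of Xpo6 was lost without control replicate 3 and with repeated quantile normalization.

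The 3 genes of the Ran cycle rose together. Ran had levels of 12.32, 12.34 and 12.45 at 48 hpi and of 11.07, 11.02 and 11.11 in control, a change of 1.30 (SE 0.08, limma adjusted p = 2.99e-05), or 2.46-fold with an interval of 2.16 to 2.82. Ranbp1, which helps GTP hydrolysis by Ran in the cytoplasm, had levels of 11.50, 11.36 and 11.78 at 48 hpi and of 9.62, 9.62 and 9.64 in control (1.92, SE 0.12, adjusted p = 2.17e-05). Rangap1, the GTPase-activating protein itself, had levels of 9.09, 9.12 and 9.21 at 48 hpi and of 7.64, 7.55 and 7.78 in control (1.49, SE 0.09, adjusted p = 2.7e-05). The 3 intervals lay wholly above 1. Ran is read by x probe sets, which can also bind transcripts of similar sequence, but its plain probe set at a lower level gave 1.28 (SE 0.12). For Rangap1 a second probe set gave 1.38, and a dimmer one, above background, gave −0.03 and was not called.

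**Figure D3:**
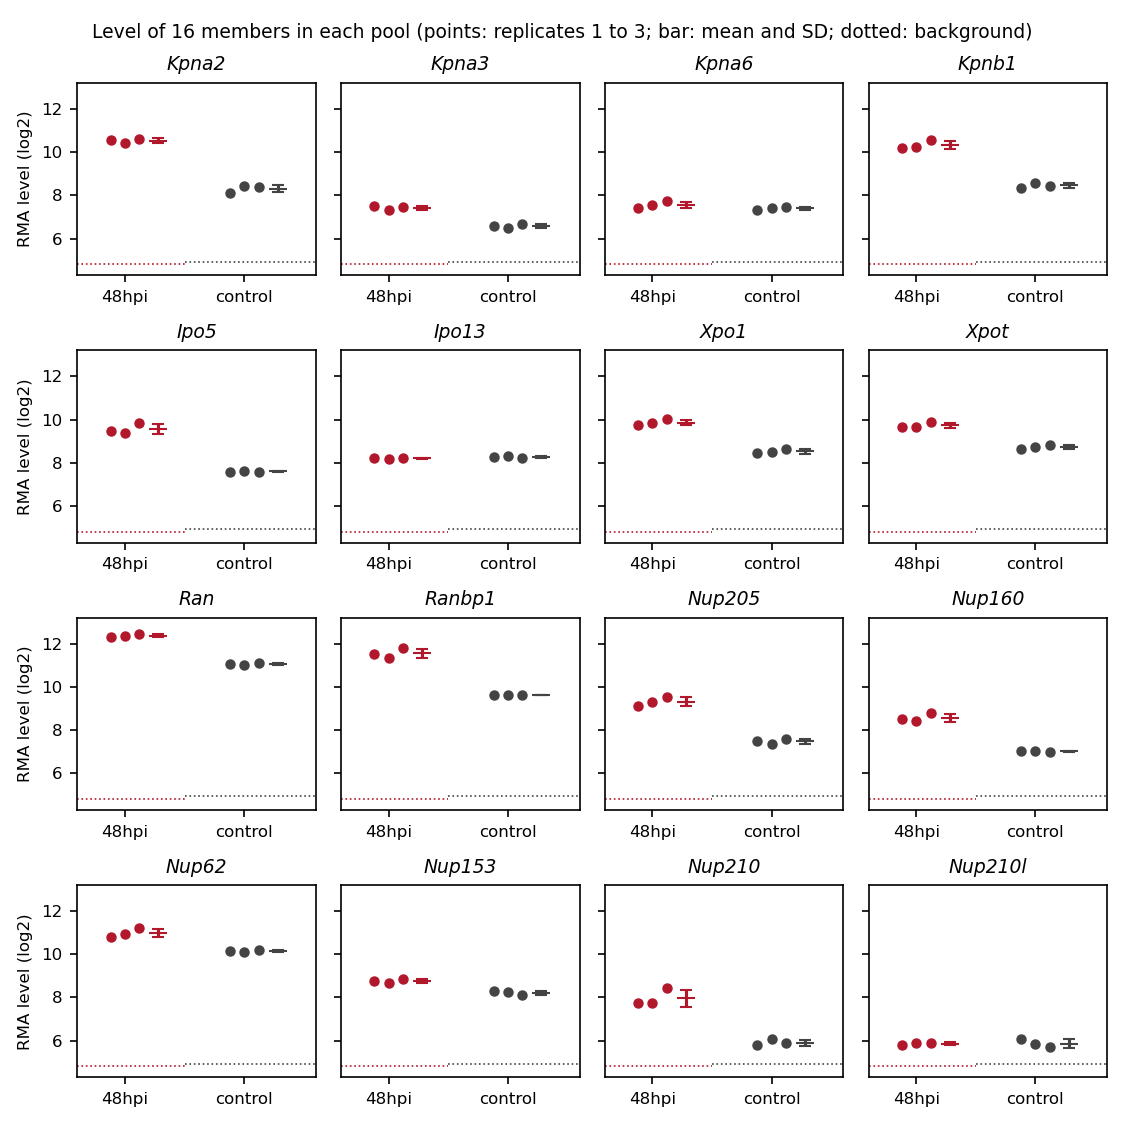
The log2 RMA level of 16 genes of the set in each pool, 48 hpi at the left of each panel and control at the right; points are replicates 1 to 3, bars are the mean and SD of 3 pools, and dotted lines mark the background (4.81 at 48 hpi, 4.94 in control). In Kpna2, Kpnb1, Ipo5, Ranbp1, Nup205 and Nup210 the groups lie well apart, whereas in Kpna6, Ipo13 and Nup210l they overlap.

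Within a family, some genes rose and other members did not pass the test. These pairs were chosen after their values were seen, so the differences are given as a description. The change of Kpna2 exceeded that of Kpna6 by 2.06 (SE 0.11), the change of Ipo5 exceeded that of Ipo13 by 2.02 (SE 0.13), and the change of Nup210 exceeded that of Nup210l by 2.05 (SE 0.27). Between exporters that were both called, the change of Xpo1 exceeded that of Xpo6 by 1.01 (SE 0.09). In each of these differences the pools of the groups did not overlap.

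Over single probe sets, 84 of the 125 were called higher, 0 lower and 41 were not called, against 17.7% higher and 15.2% lower among all 34945 probe sets with 1 symbol. Of the 41, 25 were within background in both groups and 16 were above it in at least 1 group. Probe sets of the plain and a types, meant for 1 gene, were called higher in 64 of 102 cases, and those of the s and x types, which can bind several transcripts, in 20 of 23. The 35 genes with more than 1 probe set included 0 with opposite calls, and 41 of the 46 genes had at least 1 probe set called higher. In all, 8 genes of the set rested on an s or x probe set, all of them called.

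The size of a change nevertheless depended on the probe set. For Kpnb1 the 4 probe sets gave 1.87, 0.76, 2.23 and 2.14, and for Nup155 those above background gave 1.07 and 1.95. Above background, Nup62 ranged from 0.82 on its brightest probe set to 1.49 on another (its dim probe set gave 0.02, not called), Kpna3 from 0.86 to 1.51, Nup50 from 0.38, not called, to 1.21, and Ipo9 from 0.84 to 1.20. Among probe sets above background, the brightest thus gave the smallest change in Nup62, Kpna3 and Ipo9. Ipo5 ranged from 0.22 (not called) on a dimmer probe set to 1.95 on its brightest, and Seh1l, among those above background, from −0.04 (not called) to 1.53, and with s and x probe sets left out it was read by the probe set with −0.04.

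**Figure D4:**
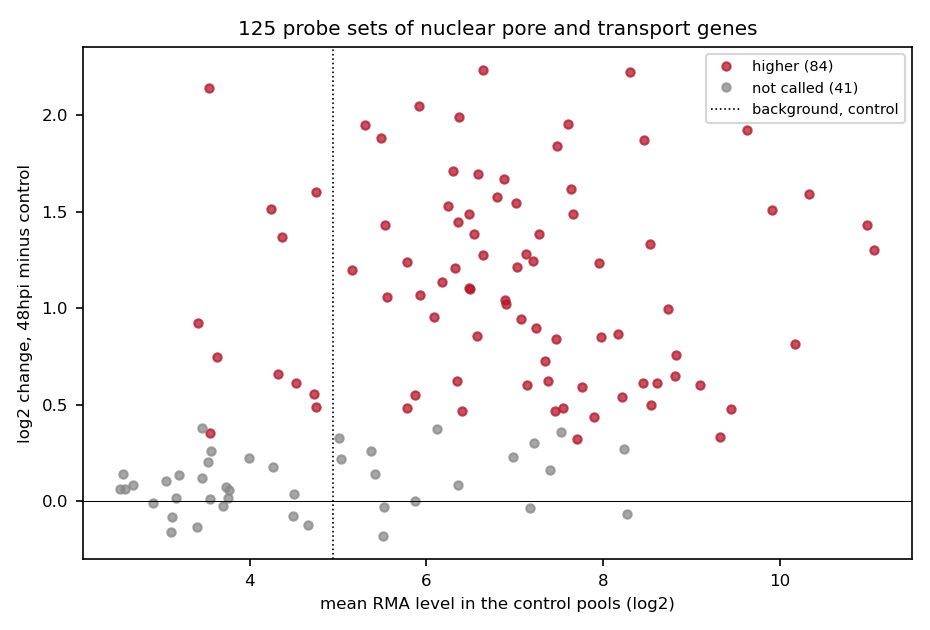
Each point is 1 of the 125 probe sets, at its mean log2 RMA level in the control pools and its log2 change at 48 hpi against control; red points (84) were called higher, grey points (41) were not called, and the dotted line marks the background in control, 4.94. Most grey points lie at the left of the background line, and no point in the plot was called lower.

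Genes that work beside these were taken from lists of the same pathway. Over all genes tested, 19.4% were called higher and 17.5% lower. Of 11 further measured genes of the pore and its assembly 7 were higher and 0 lower, with the largest changes in Ndc1, a membrane protein of the pore (1.73, SE 0.17), Nupl1, a channel nucleoporin also called Nup58 (0.91, SE 0.12), and Ahctf1, which encodes ELYS, the factor that starts pore assembly on chromatin after mitosis (0.91, SE 0.16). Of 12 further carriers and Ran regulators 8 were higher and 0 lower, led by Rcc1, which loads Ran with GTP on chromatin (1.93, SE 0.19), Rangrf (1.68, SE 0.12) and Cse1l, which returns importin alpha to the cytoplasm (1.58, SE 0.12). Rcc1, which charges Ran, thus rose as did Rangap1, which acts in the opposite step.

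Messenger RNA export showed a split between its factors. Of 15 measured genes 10 were higher and 0 lower, against 19.4% higher and 17.5% lower over all genes. Ddx39a, a helicase of the export pathway, had the largest change (2.90, SE 0.17), read by an x probe set, 1 of its 5. Next were Alyref, an adaptor (1.49, SE 0.12), and Nxt1, the partner of the main export receptor (0.90, SE 0.10). Nxf1, that receptor, had levels of 8.48, 8.56 and 8.64 at 48 hpi and of 8.60, 8.45 and 8.51 in control, with a change of 0.03 (SE 0.09, limma adjusted p = 0.802).

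The lamina and inner nuclear membrane were the neighbours with calls in both directions. Of 13 measured genes 7 were higher and 3 lower, against 19.4% higher and 17.5% lower over all genes. Among the higher genes were Lmnb1, which encodes lamin B1 (1.97, SE 0.13), and Tmpo, which encodes lamina-associated polypeptides (1.43, SE 0.10). Lbr, the lamin B receptor, was another (1.29, SE 0.09). The 3 lower genes were Syne1 (−1.31, SE 0.27) and Syne2 (−1.13, SE 0.11), which encode nesprins that link the nucleus to the cytoskeleton, and Sun1, their anchor in the inner membrane (−0.33, SE 0.09). Syne1 had levels of 5.12, 5.03 and 4.48 at 48 hpi and of 5.61, 6.63 and 6.34 in control. No gene of the pore, of transport or of messenger RNA export in these lists was called lower.

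Beside these genes, all 7 measured genes of the cell cycle list were higher, against 19.4% of all genes. Their median change was 3.35, with a range of 1.70 to 3.91. Mki67, a marker of cycling cells, had levels of 10.59, 10.70 and 11.00 at 48 hpi and of 7.23, 7.38 and 7.27 in control (3.47, SE 0.12). The summed level of the 7 genes was 13.5 to 13.8 at 48 hpi and 10.9 to 11.1 in control. Their part in the changes of the transport genes was not tested.

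**Figure D5:**
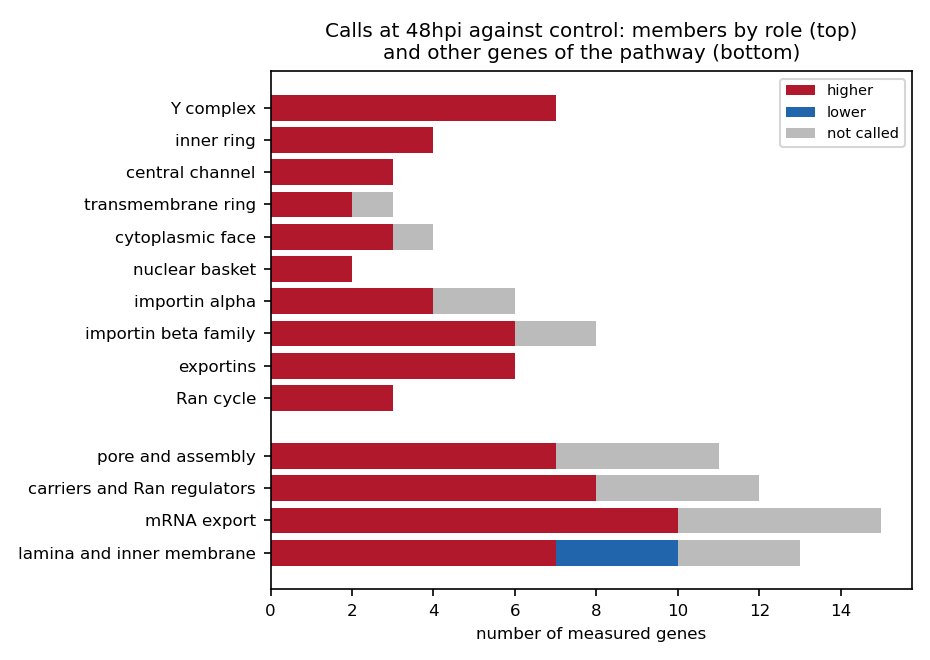
Each bar counts the measured genes of a role within the set (top) or of a list of the same pathway (bottom) that were called higher (red), lower (blue) or not called (grey) at 48 hpi against control. Only the lamina and inner membrane list has blue, for its 3 lower genes, and red is the largest part of every bar. Over all genes tested, 19.4% were called higher and 17.5% lower.

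The promoters of the genes of the set were read for the letters of a few motifs, as a description only. RefSeq windows of GRCm38.p6, from 250 bases before to 50 after the start of a gene, matched 37 of the 46 genes with 42 windows. The core motif of nuclear respiratory factor 1, GCATGCGC, was found on either strand in 6 of the 42 windows (14.29%), in 4.04% of the windows of all genes on the array and in 2.71% of all windows. The E-box CACGTG, which Myc and Max bind among others, was found in 7 (16.67%, against 8.72% and 7.15%), CCAAT of NF-Y in 21 (50%, against 37.37% and 37.41%), CCGGAAGT of ETS factors in 5 (11.9%, against 5.83% and 3.89%) and TTTGGCGC or TTTCGCGC of E2F in 1 (2.38%, against 1.23% and 0.81%). The median GC content was 64.5% in the windows of the set and 58.3% in those of all genes on the array, and its part in these shares was not tested. A match is a run of letters and was not shown to be bound. The stretches around the GCATGCGC matches follow because the 6 genes differ in role (Y complex, channel, basket, an exportin and the Ran cycle), with the motif in capitals and, where it also reads on the other strand, the longer palindrome.
Nup107: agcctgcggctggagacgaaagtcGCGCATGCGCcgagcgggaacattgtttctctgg
Nup50: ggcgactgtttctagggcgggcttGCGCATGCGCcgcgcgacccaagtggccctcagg
Nup62: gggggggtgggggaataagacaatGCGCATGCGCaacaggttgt
Ran: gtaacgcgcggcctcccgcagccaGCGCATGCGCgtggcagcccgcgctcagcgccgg
Ranbp1: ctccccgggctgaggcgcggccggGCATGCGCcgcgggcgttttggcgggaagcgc
Xpo5: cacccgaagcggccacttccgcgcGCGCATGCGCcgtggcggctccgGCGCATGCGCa

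These stretches lie at chr10:117792737-117792794 on the minus strand (Nup107, motif 65 to 56 bases before the start), chr15:84923237-84923294 on the plus strand (Nup50, 167 to 158 bases before it), chr7:44816044-44816087 on the plus strand (Nup62, 20 to 11), chr5:129019927-129019984 on the plus strand (Ran, 205 to 196), chr16:18248802-18248857 on the minus strand (Ranbp1, 139 to 132) and chr17:46202702-46202759 on the plus strand (Xpo5, 85 to 76). Nup50 held a further match 105 to 96 bases before its start, and Xpo5 a further match 62 to 53 bases before it. These 6 genes were called higher, as were 33 of the 37 genes of the set with a window, with changes of 1.38 (Nup107), 0.60 (Nup50), 0.82 (Nup62), 1.30 (Ran), 1.92 (Ranbp1) and 1.11 (Xpo5).

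The E-box stretches are shown because this motif was found in carriers, scaffold and Ran. It was found in Ipo4, Ipo7, Nup188, Nup54, Nup93, Ran and Xpot, which were called higher like most of the 37 genes with a window, and only Ran held this motif together with GCATGCGC. The match in Ipo4 lies after the start and is not printed. The motif, a palindrome, is in capitals.
Ipo7: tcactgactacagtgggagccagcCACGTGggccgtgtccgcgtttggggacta
Nup188: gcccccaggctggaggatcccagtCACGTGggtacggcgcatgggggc
Nup54: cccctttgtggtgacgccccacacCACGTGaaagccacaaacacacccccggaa
Nup93: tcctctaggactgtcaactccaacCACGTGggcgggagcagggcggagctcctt
Ran: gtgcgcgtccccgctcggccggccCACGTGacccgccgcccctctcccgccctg
Xpot: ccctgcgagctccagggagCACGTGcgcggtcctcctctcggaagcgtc

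They lie at chr7:110018154-110018207 on the plus strand (Ipo7, motif 137 to 132 bases before the start), chr2:30286368-30286415 on the plus strand (Nup188, 24 to 19), chr5:92435270-92435323 on the minus strand (Nup54, 100 to 95), chr8:94214365-94214418 on the plus strand (Nup93, 175 to 170), chr5:129020014-129020067 on the plus strand (Ran, 118 to 113) and chr10:121626534-121626582 on the minus strand (Xpot, 231 to 226). Nup188 held a further match 66 to 61 bases before its start. In Ran the E-box lay between the GCATGCGC match and the start. CCAAT was found in genes with large changes (Kpna2, Kpnb1, Ipo5 and Ranbp1) and in genes that did not pass the test (Kpna7 and Nup214).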

How the data were processed

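RNA from pools of 4 tracheas, amplified with MessageAmp Premier, was hybridized by the authors to GeneChip Mouse Genome arrays. The log2 values deposited had undergone RMA normalization by the authors in Partek 6.5, and the submitters' processing notes also name Affymetrix Expression Console 1.1. RMA makes the arrays alike in distribution, so a change shared by most genes would not show. The values ranged from 2.01 to 14.6, without detection calls. Samples were grouped by their labels, 3 per group, and the two-way analysis over both tissues was not repeated, as mesenchyme was not analysed here.

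Probe sets with 1 annotated symbol were kept (34945), 64 control probe sets were left out, and each gene was read by its brightest probe set (mean of the 6 arrays). The symbols of all 125 probe sets of the set matched RefSeq genes by Entrez ID. The 48 hpi and control arrays entered limma 3.58.1 under R 4.3.3, with lmFit, eBayes and no block, and matplotlib 3.10.9 drew the plots. The genes, roles, lists, tests and alternatives were chosen with earlier results of these data known. Given in full are the 3 genes with the smallest p in each role, every member called lower and every gene with opposite calls; of the other lists, the 3 called genes with the largest changes. Summed levels are log2 of summed linear levels. The test was also run on simulated arrays (18193 genes, 3 per group) in which 200 genes were changed. There it called 37.3% of true changes of 0.5, 77.6% of those of 1 and 95.5% of those of 2. In the data far more genes were called (19.4% higher and 17.5% lower). Since the adjusted p depends on the share of changed genes, these rates do not give the power of the comparison itself. The alternatives, 19 in all, varied the variance estimate (a trend, a robust fit, weights per array), the test (an equal-variance t-test, the form that an analysis of variance takes with 2 groups, a replicate block, a stricter threshold), the normalization, the treatment of dim probe sets, the probe set taken for a gene, and the arrays (each omitted once).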

Additional observations from a re-analysis of the deposited data

How the results depend on the processing

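The count of genes called higher was 40 as reported, 36 with an equal-variance t-test (Benjamini-Hochberg adjusted) and 35 at an adjusted p below 0.01. It was 38 with repeated quantile normalization and with the mean of probe sets, and 42 with a common median or equal hybridization controls. Without x and s probe sets it was 37 of 45 genes, as Nup107 has only an s probe set. Without dim probe sets it was 41 of 45, and when each array was left out in turn 37 to 40. Beside the losses given with the genes, Ipo4 was lost with the t-test and Ipo7 with the mean of probe sets, Nup214 was gained with a common median, equal hybridization controls, the mean of probe sets, the largest interquartile range, without dim probe sets and without 48hpi replicate 2, and Ipo8 with a common median and equal hybridization controls. The count of genes called lower was 0 in every alternative. Over probe sets, 72 (the t-test) to 92 (equal hybridization controls) were called higher and 0 lower, and 80 to 83 without single arrays. Equal hybridization controls moved the median of all genes to 0.32 and that of the set to 1.32, so that the difference between them, 0.99, was as reported; it was 0.74 with the mean of probe sets, 0.91 with repeated quantile normalization, 1.25 on the probe set with the largest interquartile range and 0.88 to 1.05 without single arrays. With equal hybridization controls the calls over all genes were 24.2% higher and 4.60% lower. The sign turned in Nup153 on the probe set with the largest interquartile range (−0.18) and in Nup210l without 48hpi replicate 2 (−0.018), 48hpi replicate 3 (−0.014), control replicate 2 (−0.0074) or control replicate 3 (−0.090), none of them called. Further signs turned in Seh1l without x and s probe sets, in Ipo13 and Kpna7 under both shifts of the arrays, and in Kpna7 without 48hpi replicate 3 or control replicate 2. The mean of probe sets gave smaller changes, still called, in Nup160 (0.73), Nup133 (0.65), Nup205 (1.08), Nup210 (1.02), Ipo5 (1.26) and Xpo1 (0.73). The 29 genes given in full had 522 values under 18 of the alternatives, all but the stricter threshold. Of these values 507 kept their direction and side of the threshold, 10 fell short of it and 5 turned. At an adjusted p below 0.01, Nup98 and Pom121 of these genes also lost their calls. With the replicate number as a block, 40 genes and 85 probe sets were called higher; the deviations of samples with the same number correlated at 0.10, 0.22 and 0.04, so the numbers were not taken to pair the samples, and the replicate block changed no call of a gene in the set.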
